A study of Mus musculus with 2 samples.

Results

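Uncx, Trim62, Bcl9l, Slc22a12 and Shisa8 were 5 of 21829 protein-coding mouse genes, chosen by the number of DNase-seq peaks in and around them outside promoters. A peak is a stretch of DNA that the nuclease DNase I cut more often than its surroundings, and its height is the authors' own value for how strongly it was cut. Distal peaks were those whose midpoint lay more than 1 kb away from any protein-coding transcript start in the annotation. They were counted in a gene's territory, which is its body and 10 kb on both sides. These counts chose the 5 genes, so they are given as a description with no test. The tissue was cerebellum of male B6CASTF1/J mice aged 36 days, F1 hybrids of the C57BL/6J and CAST strains, with 2 libraries and 1 group in all. The libraries are labelled as biological replicates 1 and 2, yet share 1 donor entry, and their spread may therefore be partly technical. They are called 2 animals below, though the labels do not settle whether they come from separate mice. The cell mixture of the tissue and the library depth are not given in the labels used here. With 1 group there was no contrast between conditions, and values below are given per animal.

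Open chromatin away from promoters often marks enhancers and other regulatory DNA, to which transcription factors bind and leave short protected stretches called footprints. The 5 genes have little in common by function. Uncx encodes a homeodomain transcription factor known for its part in patterning the vertebral column. Trim62 encodes a RING-type ubiquitin ligase of the tripartite motif family, and Bcl9l a coactivator that links beta-catenin to Pygopus proteins in Wnt signalling. Slc22a12 encodes the urate transporter URAT1 of the kidney, and Shisa8 an auxiliary protein of AMPA-type glutamate receptors.

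Promoter peaks at marker genes were set beside the tissue label. All 6 granule cell markers (Gabra6, Cbln3, Neurod1, Zic1, Zic2 and Reln) had a promoter peak in both animals, with heights of 1.91 to 27.9 (replicate 1) and 4.03 to 17.1 (replicate 2). Of 4 Purkinje cell markers 3 had one, all but Pcp2. All 4 astrocyte and Bergmann glia markers had one in both animals, and 3 and 2 of 4 oligodendrocyte markers in replicates 1 and 2. Of 4 endothelial markers, 3 had one in replicate 1 and 1 in replicate 2. None of 4 microglial and none of 4 liver markers had one, and 2 of 5 kidney markers had one in replicate 1 and 0 in replicate 2. Replicate 1 had 140127 peaks, 109190 of them distal, and 342409 footprints. Replicate 2 had 114404 peaks, 86691 of them distal, and 262603 footprints. In such mixed tissue, few cells with open DNA and weakly open DNA in many cells cannot be told apart.

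Not all 5 genes were short. The bodies of Uncx (4.69 kb), Shisa8 (6.65 kb) and Slc22a12 (7.19 kb) lay below the median of 17.4 kb over protein-coding genes, while Trim62 (27.7 kb) and Bcl9l (29.1 kb) lay above it. Set per length of territory, all 5 stood near the top, and this density rests on the counts that chose them. Averaged over the animals, Uncx had 9.32 distal peaks per 10 kb of territory and ranked 1 of all 21829 genes. Slc22a12 had 7.91 and ranked 3, Shisa8 had 7.13 and ranked 4, Trim62 had 7.12 and ranked 5, and Bcl9l had 6.72 and ranked 8. These means hid wide gaps: in replicates 1 and 2 the density was 11.4 and 4.41 at Slc22a12, 10.4 and 3.06 at Bcl9l, 9.42 and 4.82 at Trim62, 8.63 and 5.63 at Shisa8, and 8.10 and 10.5 at Uncx. The median gene had 0.372 per 10 kb. The places between them were taken by Zic2, a zinc-finger transcription factor gene of granule cells (9.01), Mpv17l2 (6.95) and Neurod2, a neuronal basic helix-loop-helix factor gene (6.81).

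The plain counts show how unevenly the animals contributed. Uncx territory held 20 distal peaks in replicate 1 and 26 in replicate 2, a mean of 23 ± 4.24 (SD, n = 2). Trim62 held 45 and 23 (34 ± 15.6), Bcl9l 51 and 15 (33 ± 25.5), Slc22a12 31 and 12 (21.5 ± 13.4), and Shisa8 23 and 15 (19 ± 5.66). Replicate 1 thus had more peaks at each gene but Uncx. The mean for Bcl9l was 15 without replicate 1 and 51 without replicate 2, and that for Slc22a12 was 12 without replicate 1. Counted in gene bodies alone, the mean over the 5 genes and both animals was 14 in place of 26.1. The median protein-coding gene had 2 distal peaks in replicate 1 and 1 in replicate 2. By mean count among all protein-coding genes, Trim62 ranked 176, Bcl9l 190, Uncx 439, Slc22a12 496 and Shisa8 629. Among the 14036 genes no longer than Bcl9l, 13 had a mean of at least 19, or 0.0926%, the 5 included. The 5 highest of the others were Pax6 (24 and 25), Kdm6b (32 and 13), Thra (33 and 11), Zic2 (20 and 24) and Adam11 (30 and 11), none with a territory overlapping those of the 5 genes.

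**Figure D1:**
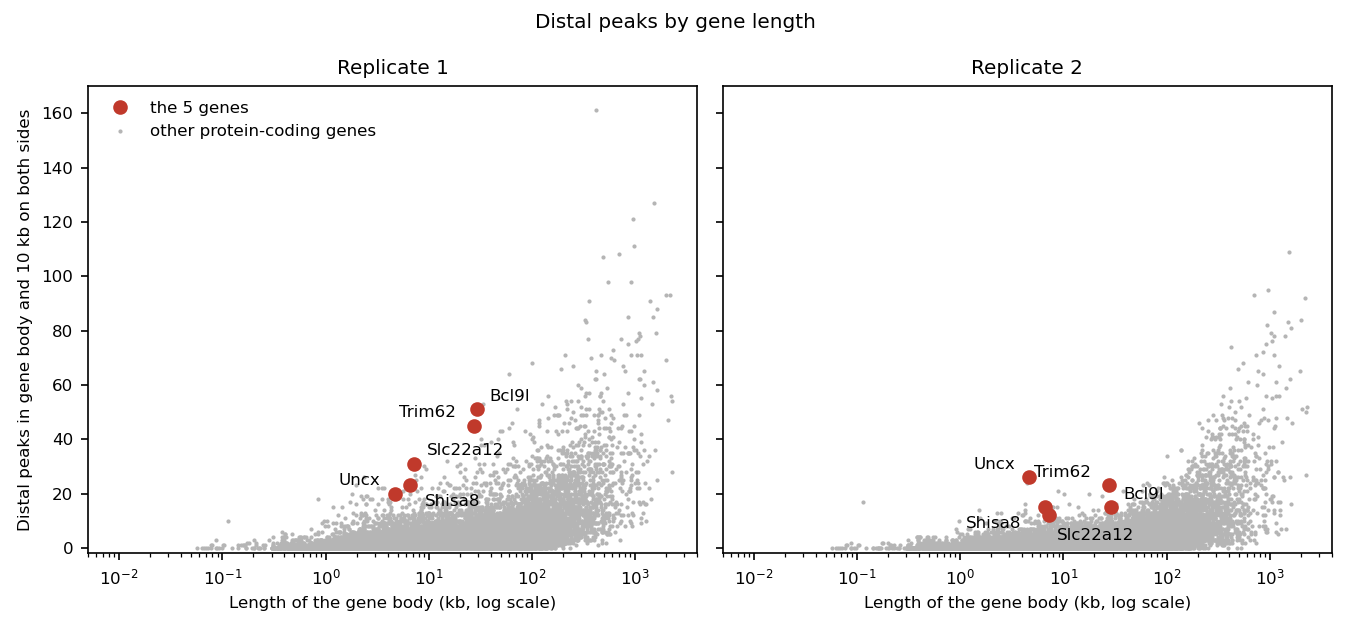
Number of distal peaks per gene territory (y axis) against the length of the gene body in kb (log x axis), in replicate 1 (left) and replicate 2 (right), 1 point per protein-coding gene. Of 21829 genes, 21827 lay inside the axes of both panels and 2 did not. The 5 genes (red) stand at 20 to 51 peaks in replicate 1 and 12 to 26 in replicate 2, above most genes of like length (grey), and each but Uncx stands higher in replicate 1.

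The strongest distal peaks of the 5 genes were open in both animals. For each gene the distal peak found in both with the highest mean height percentile, outside annotated untranslated regions, is printed from the mm10 (GRCm38) plus strand. They are shown because they are the most strongly cut shared sites that meet this condition. Capitals mark bases inside footprints of both animals. The C57BL/6J reference is shown, while the F1 animals also carry a CAST copy. The sites are chr5:139536341-139536500 at Uncx, chr4:128891301-128891500 at Trim62, chr9:44502141-44502320 at Bcl9l, chr19:6546161-6546340 at Slc22a12 and chr15:82203661-82203860 at Shisa8.
Uncx: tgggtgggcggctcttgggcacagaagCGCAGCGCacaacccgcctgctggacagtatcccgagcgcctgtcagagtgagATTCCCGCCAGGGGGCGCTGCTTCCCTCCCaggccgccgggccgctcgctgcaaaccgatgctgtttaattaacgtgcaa
Trim62: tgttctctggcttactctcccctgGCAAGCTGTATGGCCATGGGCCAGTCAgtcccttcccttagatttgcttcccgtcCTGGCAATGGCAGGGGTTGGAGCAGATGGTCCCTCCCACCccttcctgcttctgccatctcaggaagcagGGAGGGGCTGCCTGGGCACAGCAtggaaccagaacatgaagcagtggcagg
Bcl9l: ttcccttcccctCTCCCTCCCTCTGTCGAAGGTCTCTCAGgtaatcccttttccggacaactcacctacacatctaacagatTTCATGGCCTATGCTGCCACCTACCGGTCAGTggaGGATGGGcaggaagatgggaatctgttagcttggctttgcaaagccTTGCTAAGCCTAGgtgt
Slc22a12: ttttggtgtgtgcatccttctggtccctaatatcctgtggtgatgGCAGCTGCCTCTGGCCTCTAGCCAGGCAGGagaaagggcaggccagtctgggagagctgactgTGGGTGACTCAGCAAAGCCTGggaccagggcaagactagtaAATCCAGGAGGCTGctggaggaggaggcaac
Shisa8: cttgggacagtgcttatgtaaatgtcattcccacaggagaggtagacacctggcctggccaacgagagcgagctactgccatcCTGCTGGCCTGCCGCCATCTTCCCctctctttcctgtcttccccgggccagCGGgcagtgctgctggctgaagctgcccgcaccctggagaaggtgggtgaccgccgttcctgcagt
In the Uncx sequence, the longer footprint shared by both animals covered the letters AGGGGGC, part of the motif of the insulator protein CTCF. These letters were looked for after the sequence was seen. They are common: 16 of 170 windows of 200 bp at distal peaks of the 5 genes held them in replicate 1 and 12 of 91 in replicate 2, or 9.41% and 13.2%, against 7.05% and 6.63% of all distal windows. At Slc22a12, shared footprints covered an E-box, CAGCTG, and an AP-1 motif, TGANTCA. At Trim62 a shared footprint covered the E-box CAGATG. The Bcl9l and Shisa8 sequences held none of the 14 motifs searched. The Shisa8 site was mostly coding sequence of another gene, with 164 of its 200 bases in the coding sequence of Srebf2.

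Uncx (ENSMUSG00000029546.12, mm10 chromosome 5, 139543494 to 139548179, plus strand) was the gene whose distal peak counts in the 2 animals were closest in ratio. Of its distal peaks, 18 of 20 in replicate 1 and 17 of 26 in replicate 2 overlapped a peak of the other animal. Over all distal peaks these shares were 62.1% in replicate 1 and 78.1% in replicate 2. The peaks lay on both sides of the gene, with 9 and 11 upstream, 4 and 5 in the body and 7 and 10 downstream. The 4 body peaks of replicate 1 overlapped in a chain, as 1 stretch from 139546501 to 139547868. None of the 5 body peaks of replicate 2 overlapped another. No other protein-coding gene reached into the territory, and every distal peak was nearest to an Uncx start. The upstream peaks partly lay in a long noncoding RNA gene, 4930500L23Rik, which held 6 in replicate 1 and 8 in replicate 2.

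The highest distal peak of Uncx, printed above, lay 7.07 kb upstream of the gene in that noncoding gene. It had a height of 11.7 in replicate 1 and 4.94 in replicate 2, above 94.8% and 88.5% of all peaks of the same animal. The promoter peak was of like height in replicate 1 and taller in replicate 2, at 11.9 in replicate 1 and 9.72 in replicate 2. The next distal peak, 2.92 kb upstream, was a broad one of 580 and 640 bp with heights of 3.04 and 2.03. Another, 3.33 kb from the start, had a height of 2.18 in replicate 1, where its midpoint lay in coding sequence, and 1.52 in replicate 2, where the narrower peak was centred in an intron. Outside these, the Uncx peaks formed a long series of moderate height: the lowest, median and highest of all were 0.444, 1.26 and 11.7 in replicate 1 and 0.425, 0.933 and 4.94 in replicate 2. The 9 peaks seen in replicate 2 alone had heights from 0.425 to 0.859.

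Trim62 (ENSMUSG00000041000.8, chromosome 4, 128883580 to 128911328, plus strand) carried its peaks inside the gene. The body held 40 of 45 distal peaks in replicate 1 and 21 of 23 in replicate 2, and introns held 32 and 18. No other protein-coding gene overlapped the territory. The highest peak, in an intron 7.82 kb from the start, reached 14.95 in replicate 1 and 9.73 in replicate 2. Intronic peaks 4.39 kb and 1.07 kb from the start followed, with heights of 12.1 and 8.90 in replicate 1 and 9.43 and 5.40 in replicate 2. The first 2 stood above the promoter peak, whose heights were 9.93 and 5.63. Apart from these tall sites the gene also held low peaks: 30 of the 45 distal peaks in replicate 1 and 15 of the 23 in replicate 2 lay below the median height of their own list, against 56.2% and 56.3% of all distal peaks.

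Of the Trim62 peaks, 20 were found in both animals, 25 in replicate 1 alone and 3 in replicate 2 alone. Most of the replicate 1 peaks with no partner, 21, lay in the body. Their heights ranged from 0.276 to 1.40 with a median of 0.439, against a median of 0.707 for the shared peaks of the same animal. A footprint was present in 21 of these 25 peaks and in 14 of the 20 shared peaks of replicate 1, where 78% of all distal peaks held one.

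Bcl9l (ENSMUSG00000063382.6, chromosome 9, 44482825 to 44511896, plus strand) differed most between the animals. All 15 distal peaks of replicate 2 overlapped a peak of replicate 1, but those were 15 of 51 there. The other 36 were in replicate 1 alone, 34 of them in the body, with heights from 0.173 to 1.87 and a median of 0.575. Of the shared peaks in replicate 1, the median height was 2.72. The median spacing between neighbouring distal peaks of the territory was 508 bp in replicate 1 and 924 bp in replicate 2. Distal peaks covered 27.0% of the territory in replicate 1 and 6.66% in replicate 2. Of these 36 peaks, 10 stood above the median height of the list, and 3 touched a stretch that the authors' deposited false discovery rates put at or below 0.05 in replicate 2, as did 8.89% of all unshared distal peaks of replicate 1. This gene also has internal protein-coding starts, 4 starts in all, whose windows took 11 peaks in replicate 1 and 7 in replicate 2 out of the distal count.

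The peaks of Bcl9l found in both animals included tall ones at both ends of the gene. The highest lay in an untranslated region 27.5 kb from the start, with heights of 10.9 in replicate 1 and 6.91 in replicate 2. An intronic peak at 19.4 kb reached 10.8 and 5.83. A peak 2.53 kb upstream reached 7.26 and 7.13, and it belonged to an upstream group within the noncoding gene C030014I23Rik, which held 8 distal peaks in replicate 1 and 7 in replicate 2. That peak lay within 1 kb of a start of Gm47204, another noncoding gene. Promoter windows were drawn at protein-coding starts only. Of the Bcl9l distal peaks, 9 of 51 in replicate 1 and 8 of 15 in replicate 2 lay within 1 kb of another annotated transcript start. The promoter peak had heights of 14.0 and 9.52. The downstream neighbour Cxcr5, a chemokine receptor gene on the other strand whose end overlaps that of Bcl9l by 110 bp, held 2 and 1 of the distal peaks and had no promoter peak in either animal.

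Slc22a12 (ENSMUSG00000061742.12, chromosome 19, 6535845 to 6543032, minus strand) lies wholly inside the annotated body of Nrxn2, a neurexin gene on the plus strand. Nrxn2 held 16 of the 31 distal peaks in replicate 1 and 9 of the 12 in replicate 2. The other 15 and 3 lay upstream of Slc22a12, past the 3′ end of Nrxn2. The tallest peak within 1 kb of a Slc22a12 start was the lowest such peak of the 5 genes, with a height of 0.694 in replicate 1 and 0.375 in replicate 2, the second centred 707 bp from the nearest start, above 46.7% and 17.0% of peaks of the same animal. The Nrxn2 promoter, outside the territory, reached 20.3 and 12.4. The median distal peak of Slc22a12 had a height of 0.656 in replicate 1 and 2.46 in replicate 2, and a few distal peaks were far taller. The printed one, 3.22 kb upstream, had heights of 12.2 and 7.15. A pair 14.98 and 15.4 kb along from the start, inside Nrxn2 and beyond the end of Slc22a12, had heights of 9.15 and 10.4 in replicate 1 and of 8.60 and 6.89 in replicate 2.

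All 12 distal peaks of Slc22a12 in replicate 2 were shared, and the other 19 of the 31 in replicate 1 had no partner. Of these, 12 lay upstream and 5 in the body. Heights of the unpaired peaks ran from 0.244 to 2.06 with a median of 0.401, against a median of 4.04 for the 12 shared peaks. None of the 19 touched an accessible stretch of replicate 2.

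Shisa8 (ENSMUSG00000096883.2, chromosome 15, 82206168 to 82212815, minus strand) held the tallest distal peak of the 5 genes. It lay in the 3′ untranslated region 6.16 kb from the annotated 5′ end, with heights of 23.2 in replicate 1 and 11.3 in replicate 2, above 98.9% and 96.8% of peaks. Shisa8 has 2 protein-coding starts, and this peak was centred 3289 bp (replicate 1) and 3309 bp (replicate 2) from the nearest. Windows at these starts took 8 peaks in replicate 1 and 4 in replicate 2 out of the distal count. The promoter peak was far lower, at 3.67 and 2.01. The printed site, 9.05 kb from the start, had heights of 5.98 and 3.17, and a peak 3.05 kb upstream had 1.89 and 2.58. The first of these lies in Srebf2, which encodes a transcription factor of cholesterol synthesis and holds 8 of the Shisa8 distal peaks in each animal. Tnfrsf13c, the gene of the BAFF receptor, touched the territory with no distal peak midpoint in it. A start of another protein-coding gene was nearest to 6 peaks in replicate 1 and 5 in replicate 2.

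Both animals shared 12 Shisa8 peaks, with 11 in replicate 1 alone and 3 in replicate 2 alone. None of the unpaired ones reached the median height of its list. Those of replicate 1 ranged from 0.173 to 0.607.

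**Figure D2:**
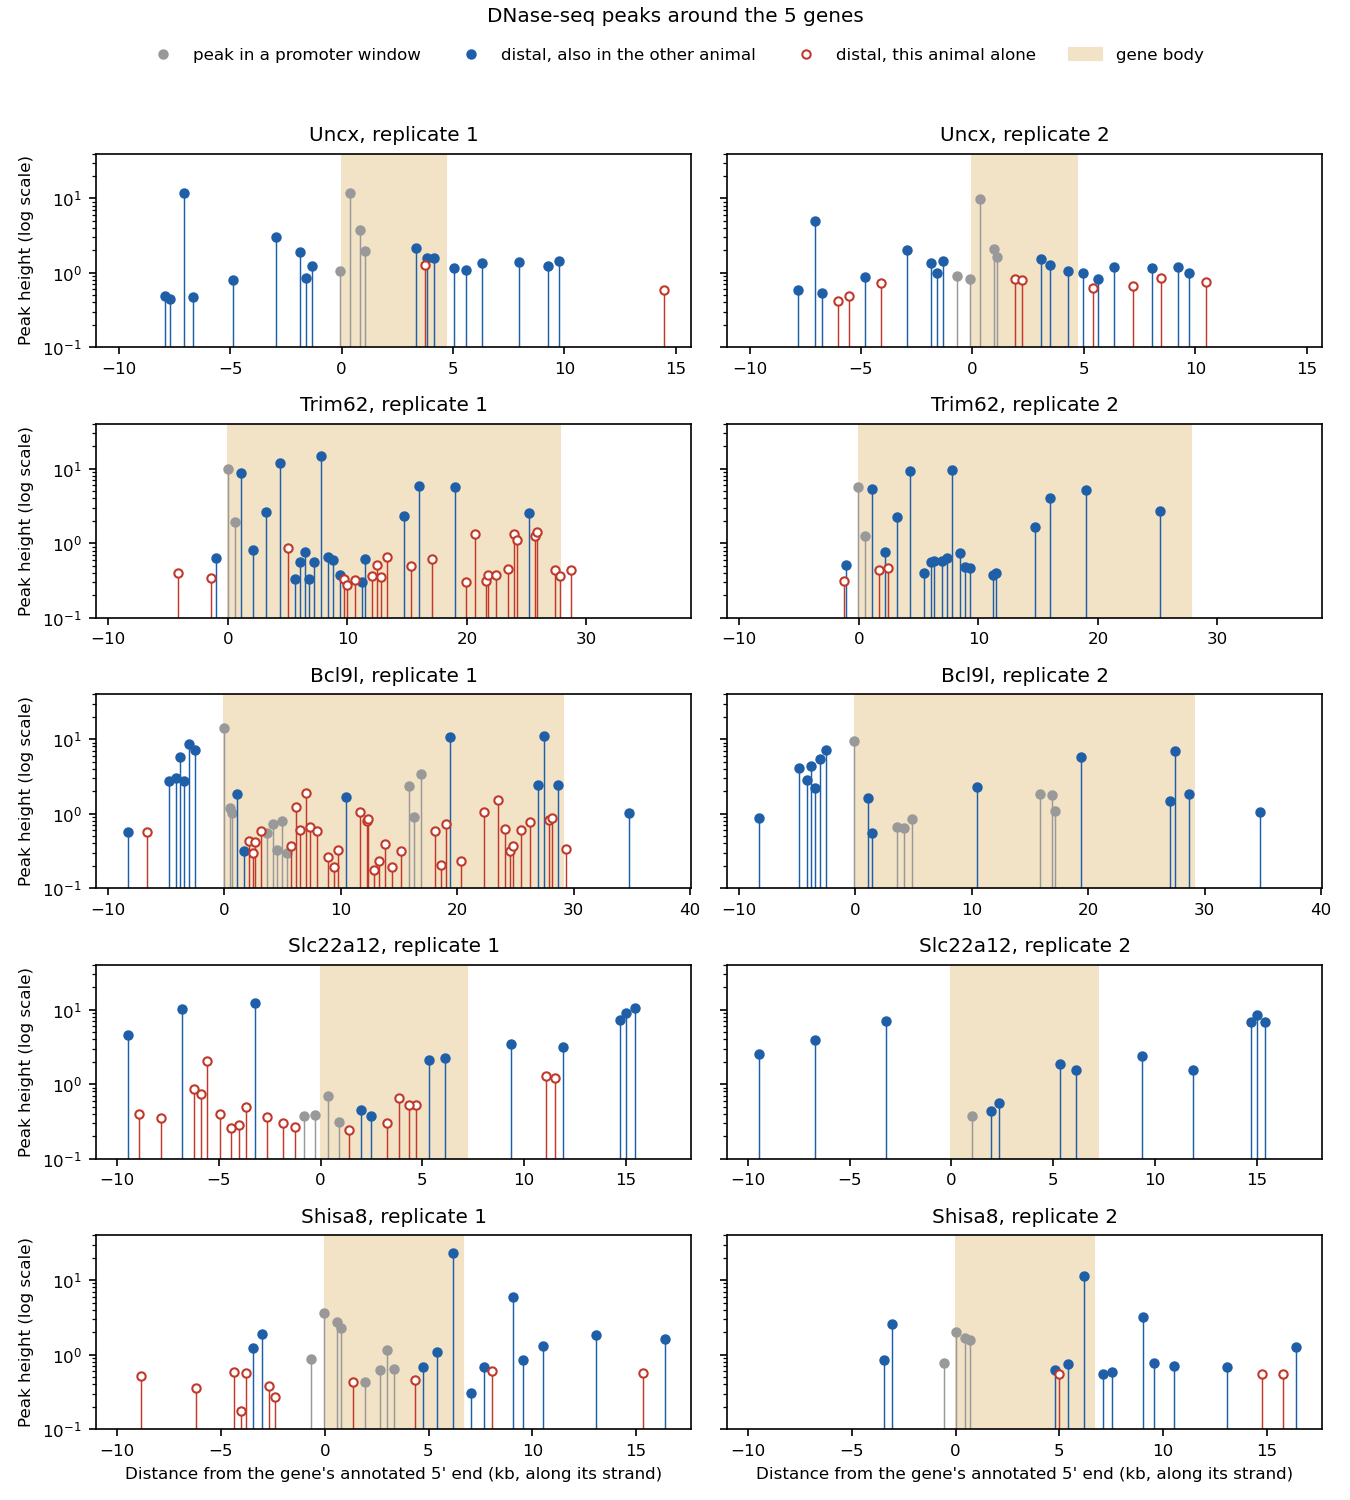
Height of every peak (log y axis, the authors' units) against its distance in kb from the gene's annotated 5′ end along its strand (x axis), for the 5 genes (rows) in replicate 1 (left) and replicate 2 (right). Shared distal peaks (filled blue) stand at like distances in both columns by definition. Open red symbols, peaks of 1 animal alone, crowd the replicate 1 panels of Trim62, Bcl9l and Slc22a12 at low heights. Grey symbols are peaks in promoter windows and shading is the gene body.

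Across the 5 genes, 77 of 170 distal peaks in replicate 1 and 76 of 91 in replicate 2 overlapped a peak of the other animal. These numbers are near equal by definition, since each overlap counts in both animals. The share was 45.3% in replicate 1, below the 62.1% of all distal peaks, and 83.5% in replicate 2, above the 78.1% of all. The difference was not tested, since the same peaks chose the genes. It did not hold at each gene: Uncx went the other way, with 90% shared in replicate 1 and 65.4% in replicate 2. The other genes stood at 29.4% to 52.2% in replicate 1 and at 80% to 100% in replicate 2. Replicate 1 had 93 unpaired peaks, of which 5 touched an accessible stretch of replicate 2, or 5.38% against 8.89% of all unshared distal peaks of replicate 1. Of 15 unpaired peaks in replicate 2, 2 touched one of replicate 1, against 11.7% of all.

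**Figure D3:**
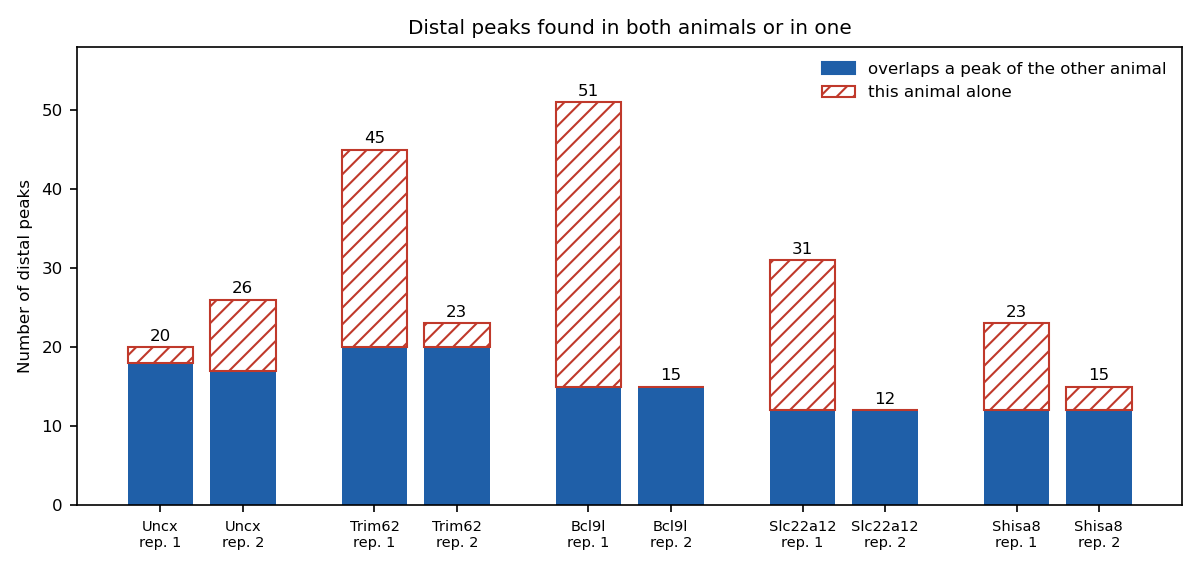
Number of distal peaks (y axis) in each gene territory by replicate, split into peaks with at least 1 bp in common with a peak in the other replicate (blue) and peaks of 1 animal alone (hatched), with totals above the bars. The blue parts, from 12 to 20, are near equal within each gene by definition, since each overlap counts in both replicates. The hatched part reaches 36 at Bcl9l in replicate 1.

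Splitting the peaks by height kept this order in replicate 1. Among its distal peaks below the median height of the list, 21 of 93 at the 5 genes were shared, or 22.6%, against 39.6% of all such peaks. Above the median 56 of 77 were shared, or 72.7%, against 91.0% of all. In replicate 2, 28 of 43 low peaks at the 5 genes were shared, or 65.1% against 63.2%, and all 48 high ones, against 97.2%. The ratio of distal peak counts, replicate 1 over replicate 2, was 3.40 at Bcl9l, 2.58 at Slc22a12, 1.96 at Trim62, 1.53 at Shisa8 and 0.769 at Uncx. Over all distal peaks it was 1.26. Among the 1839 genes with a mean of at least 10 distal peaks, a bound chosen after the values were seen, the median ratio was 1.22. Bcl9l stood above 96.3% of them, Slc22a12 above 92.3%, Trim62 above 86.3%, Shisa8 above 76.0% and Uncx above 2.88%. These ranks rest on the counts that chose the genes and are a description.

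**Figure D4:**
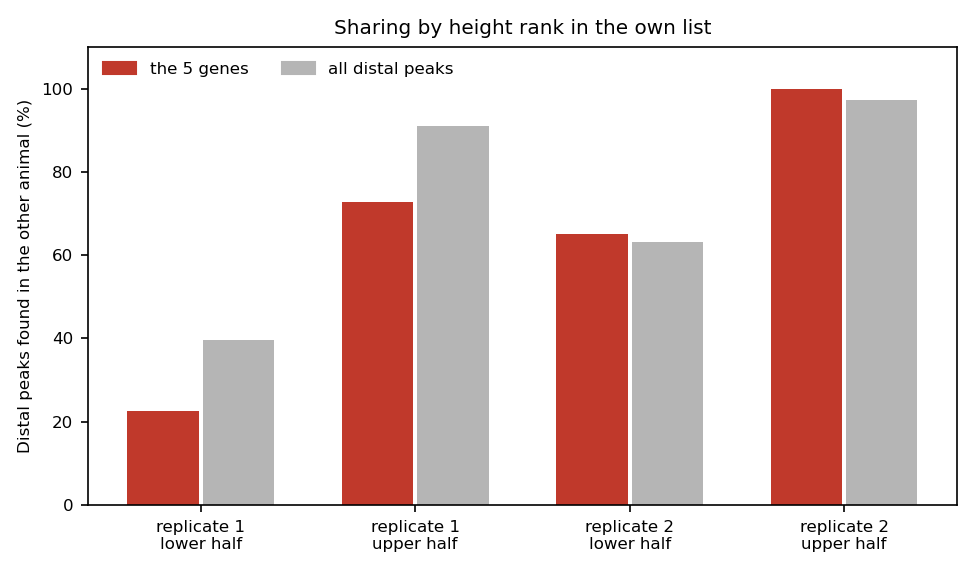
Share of distal peaks that overlap a peak of the other animal (y axis, %), for peaks below and above the median height of their own list in each replicate, at the 5 genes (red) and over all distal peaks (grey). In replicate 1 the 5 genes, pooled, stand at 22.6% and 72.7%, below 39.6% and 91.0% of all, and in replicate 2 they stand near all distal peaks. The pooled bars do not show single genes, which differed.

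Base composition and width were set beside those of all distal peaks. The median GC content of 200-bp windows at distal peaks of the 5 genes was 57.2% in replicate 1 and 57% in replicate 2, against 53% and 51% over all distal peaks. It was highest at Uncx in replicate 1, at 64.2%, with a median of 12 CpG per window against 3 over all. Among all distal peaks with a GC content of 55 to 60%, 56.4% were shared in replicate 1 and 88.4% in replicate 2, against 72.7% and 54.8% of those below 45%. At the 5 genes, 28 of 68 peaks of 55 to 60% GC were shared in replicate 1 and 26 of 29 in replicate 2, or 41.2% and 89.7%. At 60% GC or more the shares were 53.7% and 89.7%, against 57.7% and 93.4% of all distal peaks. At 50 to 55% they were 48.6% and 95.2%, against 62.2% and 82.4%. The classes with less GC held few peaks of the 5 genes, and fewer of them were shared. At 45 to 50% it was 2 of 9 and 4 of 10, or 22.2% and 40%, against 67.1% and 73.3%. Below 45% it was 0 of 2 in each animal. Distal peaks of the 5 genes were wider, with a median of 220 bp in replicate 1 and 200 bp in replicate 2, against 160 and 180 bp over all. In replicate 1, 14 of the 170 overlapped another peak of the same list, or 8.24% against 0.961% of all distal peaks, and in replicate 2 it was 2 of 91, or 2.20% against 1.04%. Any part of GC content, peak width or depth in the difference between the animals was not tested.

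Peaks centred in promoter windows had been left out of the choice. A distal peak that reached into a window could still count as a promoter peak, so the 2 sets were not fully separate. All 5 genes carried a peak overlapping a promoter window in each of the animals, against 67% of protein-coding genes in replicate 1 and 63.6% in replicate 2. Those of Bcl9l, Uncx and Trim62 were taller than at least 90.1% of peaks of the same animal, most of which are distal. Set against other promoters, Bcl9l (14.0 and 9.52) and Uncx (11.9 and 9.72) lay above the median promoter peak of 9.10 in replicate 1 and 6.65 in replicate 2, and Trim62 (9.93 and 5.63) lay above it in replicate 1 and below it in replicate 2. Shisa8 (3.67 and 2.01) and Slc22a12 (0.694 and 0.375) lay below the median promoter peak in both animals. Among all peaks of the same animal, Shisa8 stood above 83.1% and 73.2%. Slc22a12 was lowest of the 5 genes, above 46.7% and 17.0%. The 5 territories also held tall distal peaks: 14 in replicate 1 and 10 in replicate 2 reached the 90th percentile of height, or 8.24% and 10.99%, against 4.64% and 4.27% of all distal peaks. These were spread as 5 and 4 at Slc22a12, 4 and 3 at Bcl9l, 3 and 2 at Trim62, 1 and 1 at Shisa8 and 1 and 0 at Uncx.

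Footprints were dense in the territories, as the peaks were. Outside promoter windows Bcl9l held 108 footprints in replicate 1 and 44 in replicate 2, Trim62 100 and 49, Slc22a12 77 and 37, Uncx 64 and 65, and Shisa8 63 and 29. The median gene held 4 in replicate 1 and 3 in replicate 2. Uncx thus had nearly the same number in both animals, while the other genes had fewer in replicate 2. A footprint was found in 125 of 170 distal peaks in replicate 1 and in 71 of 91 in replicate 2. These are 73.5% and 78.0%, against 78% and 72.3% of all distal peaks. Of peaks with a partner, 67 of 77 held one in replicate 1 and 65 of 76 in replicate 2, and of peaks without a partner 58 of 93 and 6 of 15. The corresponding shares over all distal peaks were 90.7% and 81.8% with a partner and 57.2% and 38.6% without one.

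Motif letters in 200-bp windows at the distal peak midpoints were counted on both strands and are a description. CAGCTG and TAATTA read alike on both strands, and windows may hold several motifs. The GC box GGGCGG occurred in 23 of 170 windows at the 5 genes in replicate 1 and 14 of 91 in replicate 2, or 13.5% and 15.4%, against 8.98% and 7.41% of all distal windows. The AP-1 motif TGANTCA was present in 8.82% and 10.99%, against 7.02% and 7.90%. TTGGCA, part of the nuclear factor I motif, stood at 14.7% and 10.99% at the 5 genes, against 21.7% and 25.1%. The SOX motif ACAAAG stood at 9.41% and 9.89%, against 13.3% and 14.3%. The E-box CAGATG stood at 20.0% and 26.4%, against 25.1% and 27.1% of all, and CAGCTG at 15.3% and 14.3%, against 17.4% and 15.7%. The homeodomain letters TAATTA occurred in 2 windows of each animal, or 1.18% and 2.20%, against 2.86% and 3.75% of all. The TCF/LEF letters CTTTGAT occurred in 1 window of each animal, or 0.588% and 1.10%, against 2.12% and 2.29%. Longer strings of the CRE, ETS, MEF2, RFX and CTCF motifs were each in at most 1 window per animal. They were rare over all distal windows too, from 0.0769% (MEF2, replicate 1) to 1.38% (CTCF, replicate 1).

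Genes related to the 5 were counted in the same way, and 2.99% of all protein-coding genes reached a mean of 19 distal peaks. Of 10 other SHISA-family genes, none reached that mean, and their median was 2.5 in replicate 1 and 1.5 in replicate 2, with Shisa9 (16 and 11) and Shisa6 (9 and 7) highest. Of 19 other SLC22 transporter genes none did, with medians of 2 and 2 and Slc22a23 (10 and 11) and Slc22a14 (10 and 8) highest. None of 8 other nuclear Wnt and beta-catenin factors did, with Tcf7l1 (10 and 10) and Bcl9 (9 and 6) highest. Of 29 annotated paired-class homeobox genes 1 did, Pax6, an eye and brain patterning gene, with Prrx2 (8 and 8) next. Of 17 tripartite motif genes 1 did, Trim2 (24 and 16), with Trim67 (10 and 11) next. A promoter peak in both animals was found at 7 of 10 SHISA genes, 7 of 19 SLC22 genes, 7 of 8 Wnt factors, 8 of 29 paired-class genes and 13 of 17 tripartite motif genes. Over all protein-coding genes the share with a promoter peak, per animal, was 67% in replicate 1 and 63.6% in replicate 2.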

How the data were processed

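DNase-seq was measured in cerebellum in 2 libraries, labelled as biological replicates that share 1 donor entry. Per the deposited file descriptions, peaks, footprints and false discovery rates were made on mm10 from each animal's own alignments, with no pooling. Per the labels there is nothing on caller, aligner or scaling (not given in the sources used here). The peak height is a signal value deposited by the authors. All heights lay within 0.1 of 1 step of a whole multiple of that step, which was 0.00542 in replicate 1 and 0.00988 in replicate 2. Depth is otherwise unknown, so no counting interval was computed. The deposited false discovery rates and the footprint entry of 0.01 are of p-value type, and footprints were used by position only. Of the 2 deposited peak lists per animal the longer was used.

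Territories, promoter windows of 1000 bp and exons came from GENCODE M21, and sequence from GRCm38.p6, the same build. Peaks were placed by midpoint, a gene's promoter peak was the tallest peak overlapping a window around any of its starts, and sharing or a footprint needed 1 bp. False discovery rate stretches at or below 0.05 were merged. Height percentiles are within the animal's own list. Distances from the start run from the gene's annotated 5′ end, also where a gene has several starts. The interval code (Python 3.11.15, pandas 2.3.3) was tested on simulated data against direct counting. The members and gene lists were chosen with earlier results of these data known, and no test was run. Named genes were the members, their neighbours, the 5 other genes no longer than Bcl9l with most distal peaks, and the top 2 of each list; Zic2, Mpv17l2 and Neurod2, ranked by density, were named after their values were seen.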

Additional observations from a re-analysis of the deposited data

How the results depend on the processing

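The choices above were recomputed one at a time. The mean of distal peaks per territory, 26.1 over both animals and the 5 genes, was 14 with the gene body alone and 12.5 with peaks at or above the median height, and it ran from 18.2 without replicate 1 to 34 without replicate 2. Bcl9l ran from 15 to 51 and Slc22a12 from 12 to 31 in the same way, and with the 114404 highest peaks of each animal they stood at 27.5 and 18.5. With the smaller deposited list, Uncx stood at 12.5 in place of 23, Trim62 at 21.5 in place of 34 and Shisa8 at 11.5 in place of 19. With the gene body alone, Uncx and Shisa8 stood at 4.5 and Slc22a12 at 6.5 in place of 21.5, and with 50000 bp on both sides Slc22a12 stood at 34 and Shisa8 at 29.5. At or above the median height, Uncx stood at 14.5, Trim62 at 11.5, Bcl9l at 18, Slc22a12 at 12 and Shisa8 at 6.5. Footprints per territory, 63.6, were 32.4 with the gene body alone and ran from 44.8 to 82.4 by animal. The share of distal peaks with a footprint, 75.8%, was 79.3% with the promoter window of 2000 bp, 72.1% with the gene body alone, 91.7% above the median height and 79.1% with the same number of peaks. The median height percentile, 49.2, was 40.9 in the smaller deposited list and 74.2 above the median height. The share of distal peaks in neighbouring genes, 17.5%, was 9.42% with the gene body alone, 25.6% with 50000 bp on both sides and 29.9% when all annotated genes counted as neighbours. The share found in both animals, 64.4%, was 81.2% with peaks at or above the median height and ran from 58.5% to 66.4% under the other settings that keep both animals, beside a gap of 45.3% and 83.5% between the animals that few settings could exceed. All 5 members had a promoter peak in the data as used and 4 had one above the median height, or 4.5 as a mean over animals with the smaller list or a 500 bp window. By animal, the footprint share from 73.5% to 78.0%, the height percentile from 44.6 to 53.8, the neighbour share from 15.3% to 19.8% and the members with a promoter peak from 5 to 5. Each setting changes which peaks are counted, and the causes of these shifts were not tested. No paired analysis was possible because there is 1 group. Depth is not given, so a peak of replicate 1 with no partner was not detected in replicate 2 rather than shown to be absent.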
